A study of Sus scrofa with 6 samples.

Results

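ZP2, ZP3, BMP15 and GDF9 are genes whose products are made by the growing oocyte. They were chosen by name, as the rows whose gene name, with its trailing hyphen and number removed, is one of these 4 symbols. All 4 were found, 1 row each, among 19465 genes: ZP2 (ENSSSCG00000007851), ZP3 (ENSSSCG00000007691), BMP15 (ENSSSCG00000012310) and GDF9 (ENSSSCG00000014288). RNA had been sequenced from the ovary, the hypothalamus and the pituitary of primiparous sows (sows after their first litter) of a Landrace x Large White cross. One group of sows was in anestrus, which the labels ascribe to inactive ovaries, and the other was in normal estrus. Per the labels 3 sows were sampled in each state, and pooling of their RNA is not stated. There was 1 library for each tissue and state, 6 in all, so no difference given here has a replicate check. No test of the states was possible within a tissue, and a test that takes the 3 tissues for replicates was run as an alternative only.

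The zona pellucida is the glycoprotein coat that surrounds the mammalian egg, and it is built from proteins that the oocyte secretes. ZP2 and ZP3 encode a pair of these proteins, which are known for binding sperm and for forming the filaments of the coat. BMP15 and GDF9 encode secreted growth factors of the transforming growth factor beta family. The oocyte releases them to the granulosa and cumulus cells around it, where they act through type I and type II receptors and SMAD proteins. In sheep and mice, loss of these factors is known to disturb follicle growth or fertility.

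The libraries held 15314325 to 17384789 reads assigned to genes, and their depth differed little. Normalised read counts are the authors' values, in which reads were scaled by a size factor for each library, and are compared only between the libraries of one tissue. Levels across tissues are given as RPM, reads per 1000000 gene reads of the library. No transcript lengths were used, so levels are not compared between genes. Every 95% interval covers counting error only. Summed over the rows found, markers of each tissue were highest where the labels put them. Of 7 hypothalamic, 7 pituitary and 12 granulosa marker genes looked at, 7, 6 and 11 rows were found. The granulosa genes summed to 2491 and 13077 RPM in the anestrous and estrous ovary, and to 277 and 302 in the hypothalamus libraries. Single genes could differ: GATM, a granulosa marker, gave 507 and 899 reads in the ovary but 2010 and 2383 in the hypothalamus. The summed level of the hypothalamic genes was 3389 RPM in the anestrous and 3387 in the estrous hypothalamus, with 443 and 517 in the anestrous and estrous pituitary and 2.86 and 2.45 in the anestrous and estrous ovary. The near-equal hypothalamus sums hide opposite shifts: AVP gave 435 and 13729 reads in the anestrous and estrous hypothalamus, and PMCH 8633 and 4420. SNAP25 gave the most reads of these genes in each hypothalamus library (25700 and 18182). The pituitary genes summed to 259505 and 248751 RPM in the anestrous and estrous pituitary, with 199.5 and 459 in the hypothalamus libraries and 100.1 and 104 in the ovary libraries, anestrous before estrous in each.

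In the ovary, the egg coat genes and BMP15 were 4- to 5-fold lower in the anestrous library, and GDF9 was about 1.5-fold lower. ZP2 gave 46 reads in the anestrous and 241 in the estrous ovary, or normalised counts of 47.9 and 232. Its count was 4.83-fold lower in anestrus (95% interval 3.51 to 6.78). ZP3 had the most reads of the 4 genes in the estrous ovary. It gave 238 reads in the anestrous and 1033 in the estrous ovary (normalised counts 248 and 992), a 4.01-fold lower count (3.48 to 4.63).

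BMP15, the oocyte factor that signals mainly through the SMADs of the bone morphogenetic protein branch, gave 49 reads in the anestrous and 228 in the estrous ovary. Its normalised counts were 51.0 and 219, a 4.29-fold lower count (3.14 to 5.97). GDF9, its relative that signals mainly through SMAD2 and SMAD3, gave 399 reads in the anestrous and 661 in the estrous ovary. Its normalised counts were 415 and 635, a 1.53-fold lower count (1.35 to 1.74). All 4 genes were thus lower in the anestrous ovary library, 3 of them by a similar factor and GDF9 by a smaller one. For ZP2, ZP3 and BMP15, fewer oocytes and less RNA per oocyte cannot be told apart in whole tissue. GDF9 was also read at similar levels outside the ovary, so its ovary reads need not all come from oocytes.

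A gene was counted as lower or higher when the mean normalised count of its pair of libraries was at least 50 and its log2 fold, anestrous over estrous with a pseudocount of 1, was at least 1 in size (2-fold). All 4 genes passed that floor in the ovary. ZP2, ZP3 and BMP15 were counted as lower, with log2 folds of -2.25, -2.0 and -2.08, and GDF9 (-0.61) was within 2-fold. Among all 10902 ovary genes over the floor, 7.95% were counted as lower and 12.3% as higher. The median log2 fold of these genes was 0.02. Of these genes, 104 had a log2 fold as low as that of ZP2 or lower (0.954%), 140 as low as BMP15 (1.28%) and 163 as low as ZP3 (1.5%), against 1766 as low as GDF9 (16.2%). The counting interval of the ratio lay below 1 for all 4 genes and for 35.9% of the ovary genes over the floor, so for GDF9 that alone does not set it apart.

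**Figure D1:**
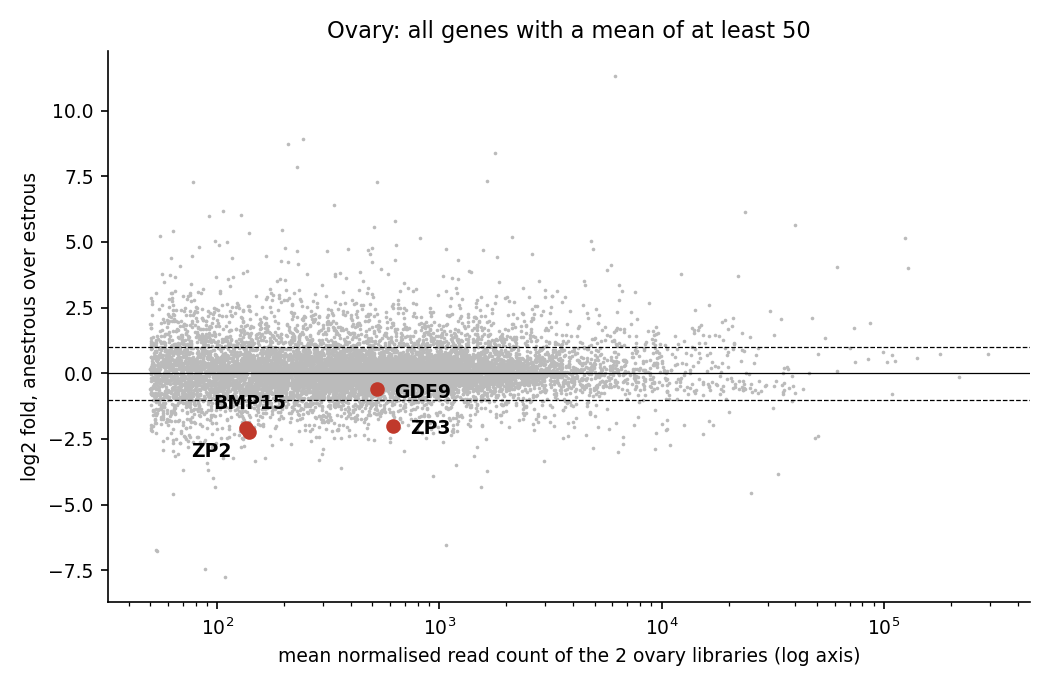
Log2 fold, anestrous over estrous ovary with a pseudocount of 1, against the mean normalised count of both ovary libraries (log axis) for each of the 10902 genes with a mean of at least 50 (grey points), with the 4 genes described in red. Dashed lines mark 2-fold. ZP2, ZP3 and BMP15 lie between -2.25 and -2.0, below the lower line, and GDF9 lies between the lines at -0.61.

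In the authors' deposited table, the p-values of the ovary pair were 0.0101 for ZP3, 0.0244 for ZP2, 0.0376 for BMP15 and 0.424 for GDF9. After the authors' adjustment over all genes, none of the 4 was at or below 0.05. The authors' deposited table gives adjusted p-values of 0.413 for ZP3, 0.625 for ZP2, 0.744 for BMP15 and 1 for GDF9. By that threshold 108 ovary genes were called in the authors' deposited table.

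The anestrous to estrous ratios of ZP2, ZP3 and BMP15 could not be told apart from each other at this depth, and that of GDF9 lay apart from them. The ratio of ZP3 divided by that of ZP2 was 1.21 (95% interval 0.848 to 1.75), that of BMP15 divided by that of ZP2 was 1.13 (0.707 to 1.80), and that of BMP15 divided by that of ZP3 was 0.933 (0.650 to 1.32). The ratio of GDF9 was 3.16 times that of ZP2 (2.24 to 4.54), 2.62 times that of ZP3 (2.16 to 3.18) and 2.81 times that of BMP15 (2.0 to 4.0). These values do not depend on how the libraries are scaled, since each compares genes within the same pair of libraries.

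Across tissues, ZP2, ZP3 and BMP15 were almost absent outside the ovary. ZP2 was at 2.80 RPM in the anestrous and 15.6 in the estrous ovary, with 0 reads in either hypothalamus library and 1 and 3 reads in the anestrous and estrous pituitary. A count of 0 in the hypothalamus allows a level of up to 0.190 RPM in the anestrous and 0.196 in the estrous library, at 3 reads each. In the estrous libraries, the level of ZP2 was at least 79.4-fold higher in ovary than in hypothalamus and 88.2-fold higher than in pituitary (29.8 to 431). The ovary libraries held 98.7% of the RPM of ZP2 summed over the 6 libraries.

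ZP3 was at 14.5 RPM in the anestrous and 66.7 in the estrous ovary. It had 0 reads in the anestrous and 2 in the estrous hypothalamus, and 0 in both pituitary libraries. Its level was at least 83.9-fold higher in ovary than in pituitary in anestrus, and at least 378-fold higher in estrus. The ovary libraries held 99.8% of its summed level, the largest share of the 4 genes.

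BMP15 was at 2.98 RPM in the anestrous and 14.7 in the estrous ovary, had 2 reads in the anestrous and 1 in the estrous hypothalamus, and had none in the pituitary. The ovary share of its summed level was 98.9%. In these 3 genes the estrous ovary was thus highest, the anestrous ovary next, with Poisson intervals that did not overlap, and the other 4 libraries had 0 to 3 reads. For comparison, PRL, the prolactin gene of the pituitary, gave 2682174 reads in the anestrous and 2136505 in the estrous pituitary. It gave 873 and 842 reads in the anestrous and estrous ovary, and 1598 and 1479 in the hypothalamus libraries. Whether reads passed between libraries was not tested.

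GDF9 did not share this pattern. Its row was read at similar levels in all 3 tissues, which goes against its name as an oocyte gene. It gave 596 reads in the anestrous and 592 in the estrous hypothalamus, and 702 and 456 in the anestrous and estrous pituitary, beside the 399 and 661 of the ovary. The ovary held 31.8% of its summed level. In the order of its levels, the estrous ovary came first (42.7 RPM, 95% Poisson interval 39.5 to 46.1), then the anestrous pituitary (40.4, 37.4 to 43.5), the estrous hypothalamus (38.7, 35.6 to 41.9) and the anestrous hypothalamus (37.7, 34.7 to 40.8). Below them were the estrous pituitary (26.8, 24.4 to 29.4) and the anestrous ovary (24.3, 22.0 to 26.8). The intervals of the first 4 overlapped with their neighbours in that order, as did those of the last pair, and the step between these groups was the only one without overlap. The order depends on the total used: without the 10 genes with most reads in each library, the anestrous pituitary was highest (63.0), and the estrous ovary (46.7) came after both hypothalamus libraries.

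**Figure D2:**
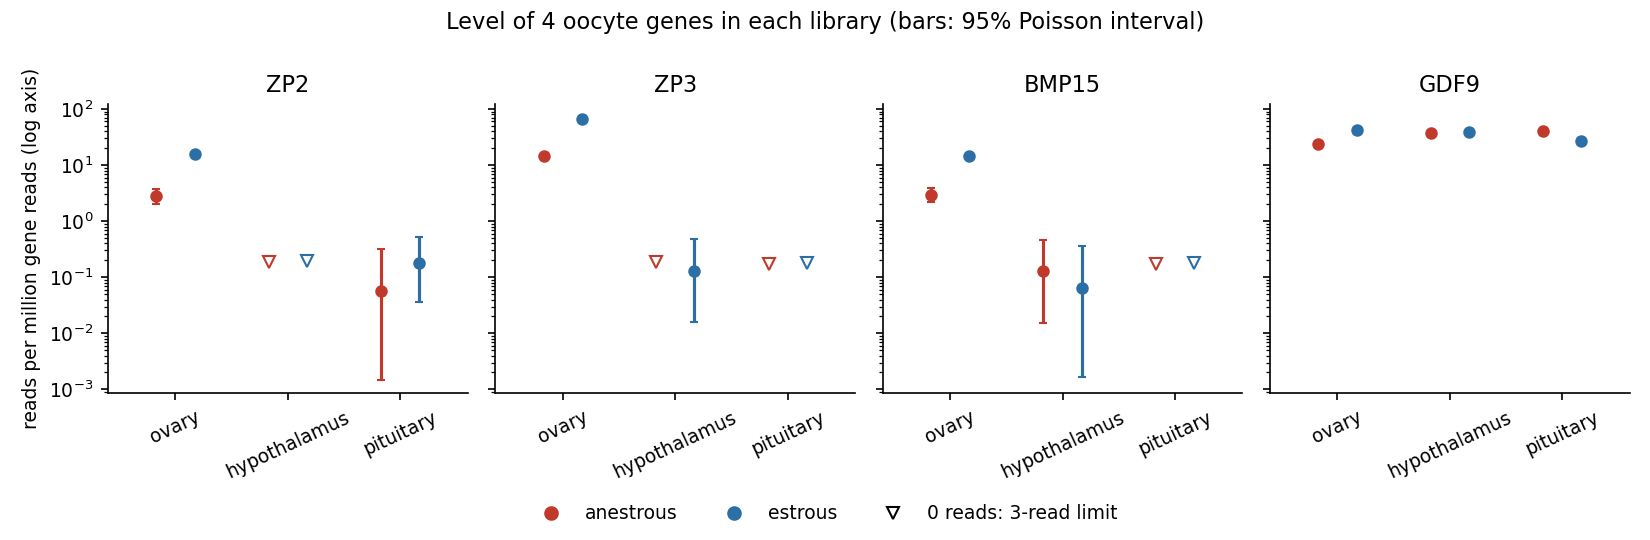
Level of each gene in each of the 6 libraries, in RPM on a log axis, for anestrous (red) and estrous (blue) sows. Bars are 95% Poisson intervals, some smaller than the points, and open triangles mark a library with 0 reads at its 3-read limit. ZP2, ZP3 and BMP15 stand above 2 RPM in the ovary alone, while GDF9 lies between 24.3 and 42.7 in all 6 libraries.

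**Figure D3:**
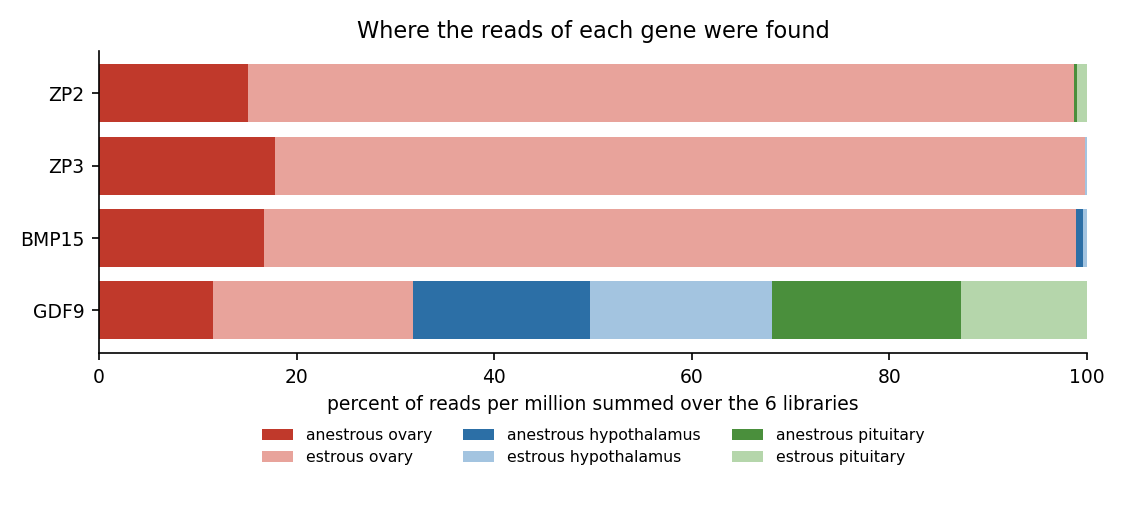
Share of each gene's RPM, summed over the 6 libraries, that each library held (percent; bars are stacked to 100). The ovary libraries hold 98.7%, 99.8% and 98.9% for ZP2, ZP3 and BMP15, and 31.8% for GDF9.

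GDF9 also differed between tissues in its direction. In the pituitary its normalised counts were 723 in the anestrous and 443 in the estrous library, a ratio of 1.63 (1.45 to 1.84, log2 fold 0.70). In the hypothalamus they were 606 and 583, a ratio of 1.04 (0.926 to 1.17). GDF9 was within 2-fold in each tissue, as were all but 3.11% of 10720 pituitary genes and all but 2.34% of 11390 hypothalamic genes over the floor. The interval of the ratio lay above 1 for GDF9 and for 26.8% of the pituitary genes, while in the hypothalamus, where 48.2% of genes had an interval off 1, that of GDF9 included it. The ovary ratio of GDF9 divided by its pituitary ratio was 0.401 (0.337 to 0.478), and by its hypothalamus ratio 0.630 (0.530 to 0.748). In the authors' deposited table the p of GDF9 was 0.0377 in the pituitary and 0.863 in the hypothalamus, and the adjusted p was 0.986 and 1.

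The sources used here name neither the counting step nor its use of strand, so a row can hold reads of an overlapping transcript. In the RefSeq annotation of the pig assembly Sscrofa11.1, which need not be the annotation the authors used, no neighbouring gene overlaps GDF9. Its neighbours there are SHROOM1 and a long noncoding RNA (LOC102159960) on one side, and LOC100524308 and LEAP2 on the other. LOC102159960 and LOC100524308, the nearest on each side, were not found by name, so no reads can be given for them. SHROOM1 gave 146 and 255 reads in the anestrous and estrous hypothalamus, 299 and 285 in the pituitary, while the ovary gave 179 and 384, and LEAP2 gave at most 5 reads in any library. ZP2 is overlapped in that annotation by TMEM159, which was not found by name in the tables, and ZP3 and BMP15 by no listed neighbour. Whether reads of another transcript entered the GDF9 row was not tested.

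The genes most like each member were sought by the smallest Euclidean distance over the 6 libraries between log2 levels (RPM plus 0.1, centred on each gene's mean), among 10508 named genes with at least 50 reads in the pair of ovary libraries. The genes nearest to ZP2 were PRDM6 (distance 0.94), DPPA5 (1.02), CYP2B6 (1.05), HOXD4 (1.15) and GALR2 (1.17). DPPA5, which encodes an RNA-binding protein of early embryos and germ cells, gave 95 reads in the anestrous and 452 in the estrous ovary, and 0 to 3 reads elsewhere. Those nearest to ZP3 were WT1 (0.95), LHCGR (1.09), CR1 (1.09), CTSL (1.24) and ZP4 (1.34). WT1 and LHCGR are known from somatic cells of the follicle, so likeness over these libraries does not point to one cell type.

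The genes nearest to BMP15 were DPEP1 (0.77), NUGGC (0.84), HOXC4 (1.01), PTGIS (1.10) and NLRP9 (1.14). NLRP9, a member of a gene family that oocytes express in cattle and mice, gave 32 reads in the anestrous and 241 in the estrous ovary and none in the other libraries. GDF9 had closer neighbours, all of them found in every tissue: ZSWIM1 (0.15), MCAT (0.18), HEXDC (0.30), SNX16 (0.30) and ST6GALNAC6 (0.30). MCAT, which encodes a transferase of mitochondrial fatty acid synthesis, gave 342 and 299 reads in the anestrous and estrous hypothalamus, 365 and 253 in the anestrous and estrous pituitary, and 212 and 329 in the anestrous and estrous ovary. The distance of GDF9 to the other members was 6.77 to 9.48, while ZP2, ZP3 and BMP15 were 2.12 to 3.43 apart. ZP2, ZP3 and BMP15 had few or no reads outside the ovary, so their distances also depend on single reads and on the 0.1 RPM added.

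The other genes of the egg coat were lower in the anestrous ovary as well. ZP4, which encodes the third zona protein measured here, gave 129 reads in the anestrous and 468 in the estrous ovary and none in the other tissues, a 3.35-fold lower count (ratio 0.299, 0.244 to 0.364). Its ratio divided by that of ZP3 was 1.20 (0.932 to 1.53) and divided by that of ZP2 1.44 (0.985 to 2.14). ASTL, whose product cleaves ZP2 after fertilisation in mice, gave 4 and 21 reads in the anestrous and estrous ovary (ratio 0.206, 0.0515 to 0.612). OVGP1, a glycoprotein of the oviduct that binds to the zona, gave 44 and 321 reads in the ovary (ratio 0.149, 0.106 to 0.204), but was also read in the anestrous and estrous hypothalamus (27 and 38 reads).

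Genes of the oocyte and germ line other than the 4 members were mostly lower too. Of 44 symbols in the egg coat, oocyte transcription factor, oocyte maternal and germ line lists (some of them aliases), 35 rows were found, and 34 had a read in an ovary library. The log2 fold was below 0 in 27 of these 34, some of them with few reads, such as NLRP5 (0 and 8 in the anestrous and estrous ovary). The share below 0 among all ovary genes was not counted. Over a mean of 10, the floor used for lists, 15 of 26 were at least 2-fold lower in the anestrous ovary, 1 was 2-fold higher and 10 were within 2-fold, with a median log2 fold of -1.53. Among all 13193 ovary genes over that floor, 10.7% were 2-fold lower, 13.6% were 2-fold higher and the median was 0.01. Genes that are read only in estrus pass the floor through the library where they are high, so these counts describe the list and test nothing. With a floor of 200, 6 of the genes were left, 3 lower and 1 higher, with a median of -1.19, and the 16 oocyte maternal genes had a median of -1.53 at a floor of 10 and, for those left, -0.60 at 200.

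**Figure D4:**
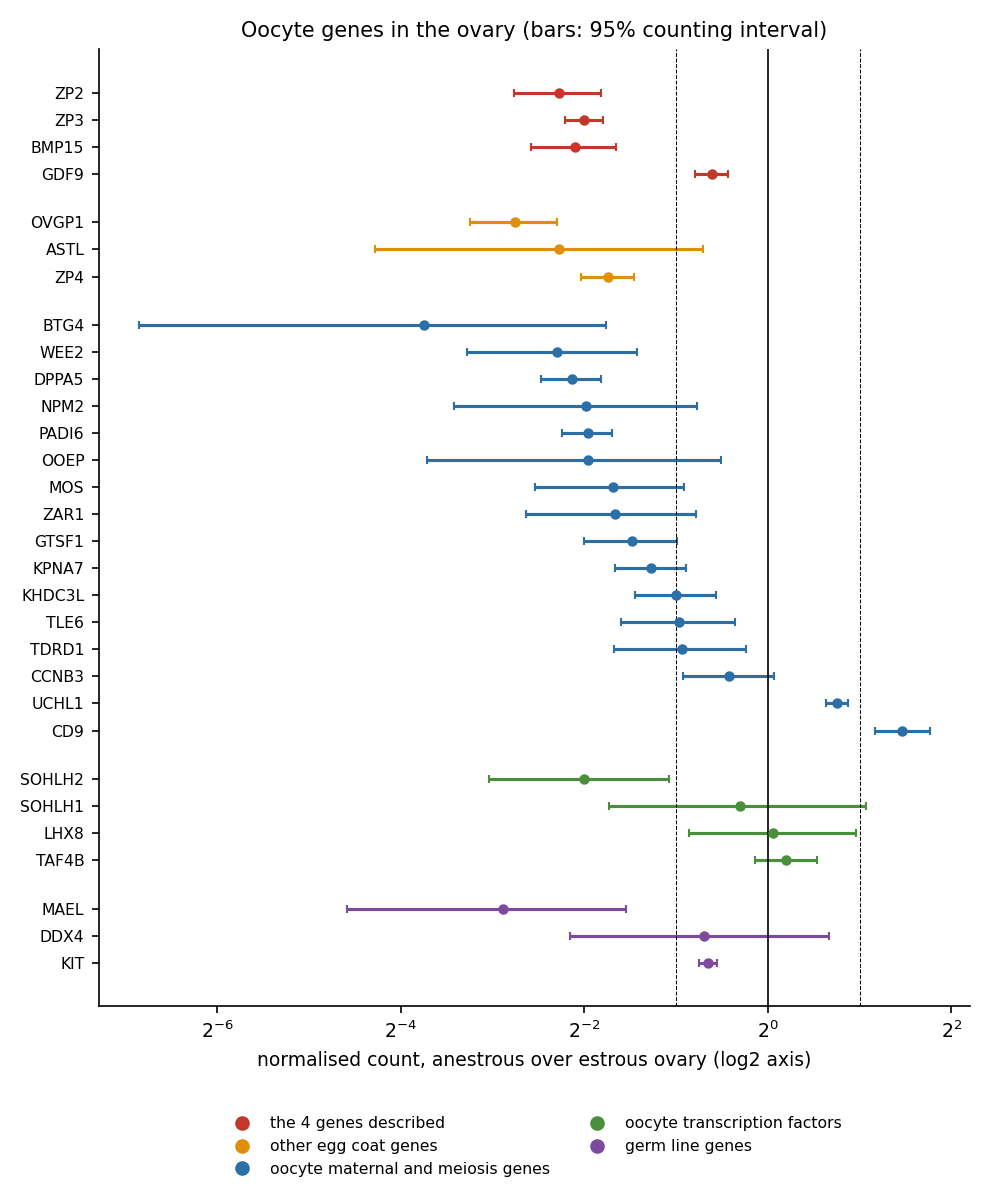
Ratio of normalised counts, anestrous over estrous ovary (log2 axis), for the 4 genes described and for the other oocyte and germ line genes with a mean of at least 10. Bars are 95% counting intervals, the solid line marks equal counts and dashed lines mark 2-fold. ZP2, ZP3 and BMP15 lie at 0.207 to 0.250 and GDF9 at 0.654. CD9 (2.76) and UCHL1 (1.68) are the genes shown whose whole interval lies above 1.

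Among these oocyte genes, 9 had at least 95% of their summed level in the ovary libraries. Of these, 8 were 2-fold lower (log2 folds of all 9 from -2.67 to -0.99), against 38.7% of all 253 genes with that ovary share over the same floor. The 253 include the 9, and some pass the floor through the estrous library, such as OOEP (5 and 21 reads in the anestrous and estrous ovary). This count too describes the list and tests nothing. PADI6, an enzyme-family gene needed for early cleavage in mice, gave 138 reads in the anestrous and 583 in the estrous ovary (ratio 0.257, 0.212 to 0.309). The meiotic kinase genes MOS (18 and 63 reads, ratio 0.310, 0.173 to 0.530) and WEE2 (13 and 69 reads, ratio 0.204, 0.104 to 0.373) and the germ line gene MAEL (5 and 40 reads, ratio 0.135, 0.0417 to 0.343) were lower by similar factors. KHDC3L, a gene of the maternal complex under the egg's membrane, was just within 2-fold by the log2 fold (65 and 141 reads, -0.99).

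The other 17 genes, with a smaller ovary share, were mixed. Of these, 7 were 2-fold lower, BTG4 most of all (2 and 29 reads in the anestrous and estrous ovary), and 1 was 2-fold higher. That gene was CD9, a membrane protein of the egg surface that many cell types carry (334 and 131 reads, ratio 2.76, 2.25 to 3.41). UCHL1, which is abundant in neurons as well as in oocytes, gave 1519 and 977 reads in the anestrous and estrous ovary (ratio 1.68, 1.55 to 1.83), and 9678 and 8695 in the hypothalamus. KIT, the receptor for stem cell factor on oocytes and theca cells, gave 1261 and 2148 reads in the ovary (ratio 0.636, 0.593 to 0.682).

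FIGLA, a transcription factor that activates zona genes in mice, gave 2 and 15 reads in the anestrous and estrous ovary and none in other tissues (ratio 0.144, 0.0160 to 0.621). NOBOX, a homeobox factor of oocytes, was at 0 reads in all 6 libraries, and DAZL gave 1 read in the anestrous ovary alone. LHX8 (22 and 23 reads) and TAF4B (153 and 145 reads) did not differ beyond counting error. SOHLH2 gave 12 and 52 reads in the ovary (ratio 0.250, 0.122 to 0.475), but 95 to 205 in the hypothalamus and pituitary libraries.

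As a background for genes restricted to the ovary, all of them were counted. There were 161 genes over the floor of 50 with at least 95% of their summed level in the ovary libraries. Of these, 31.1% were 2-fold lower and 38.5% were 2-fold higher, with a median log2 fold of 0.05, and 18 had a log2 fold as low as that of ZP2 or lower. The cutoff matters: at 99%, which ZP3 passes and ZP2 and BMP15 do not, 64.0% of 50 genes were lower and 24.0% higher.

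Of 12 receptors and SMADs found that carry BMP15 and GDF9 signals, none was 2-fold lower in the anestrous ovary, 2 were 2-fold higher and 10 were within 2-fold. Among all ovary genes over the list floor 75.6% were within 2-fold, so the 10 of 12 do not set this list apart. Its median log2 fold of 0.02 was -0.18 with equal library totals and -0.04 with a floor of 200. BMPR2, the type II receptor shared by both factors, gave 1691 and 1625 reads in the anestrous and estrous ovary (ratio 1.13, 1.05 to 1.21), but its log2 fold of 0.17 is smaller than the shift of -0.20 that equal library totals bring. BMPR1B, the type I receptor of BMP15, gave 877 and 980 reads (ratio 0.970, 0.884 to 1.06). BMPR1A was lower (316 and 500 reads, ratio 0.685, 0.593 to 0.790).

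TGFBR1, the type I receptor of GDF9, was 2-fold higher, with 3684 reads in the anestrous and 1111 in the estrous ovary (ratio 3.59, 3.36 to 3.85). SMAD7, an inhibitor of this pathway, was as well (845 and 351 reads, ratio 2.61, 2.30 to 2.96). SMAD9, a signal carrier of the BMP branch, was lower within 2-fold (528 and 955 reads, ratio 0.599, 0.538 to 0.667). These receptors are read in many cell types, and TGFBR1 gave 718 to 1053 reads in the hypothalamus and pituitary libraries.

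Of 5 rows for pro-protein convertases, which cleave the precursors of this family into active factors, 3 were 2-fold higher in the anestrous ovary and none was lower (median log2 fold 1.79), against 13.6% higher among all ovary genes over the list floor. The 3 rows belong to 2 genes, FURIN and PCSK6, and PCSK5 (log2 fold 0.93) and PCSK7 (0.46) were within 2-fold. FURIN gave 3645 and 1141 reads in the anestrous and estrous ovary (ratio 3.46, 3.24 to 3.70). PCSK6 has 2 rows, both higher (219 and 56 reads, ratio 4.24, and 200 and 37 reads, ratio 5.86), and how reads were divided between them is uncertain.

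**Figure D5:**
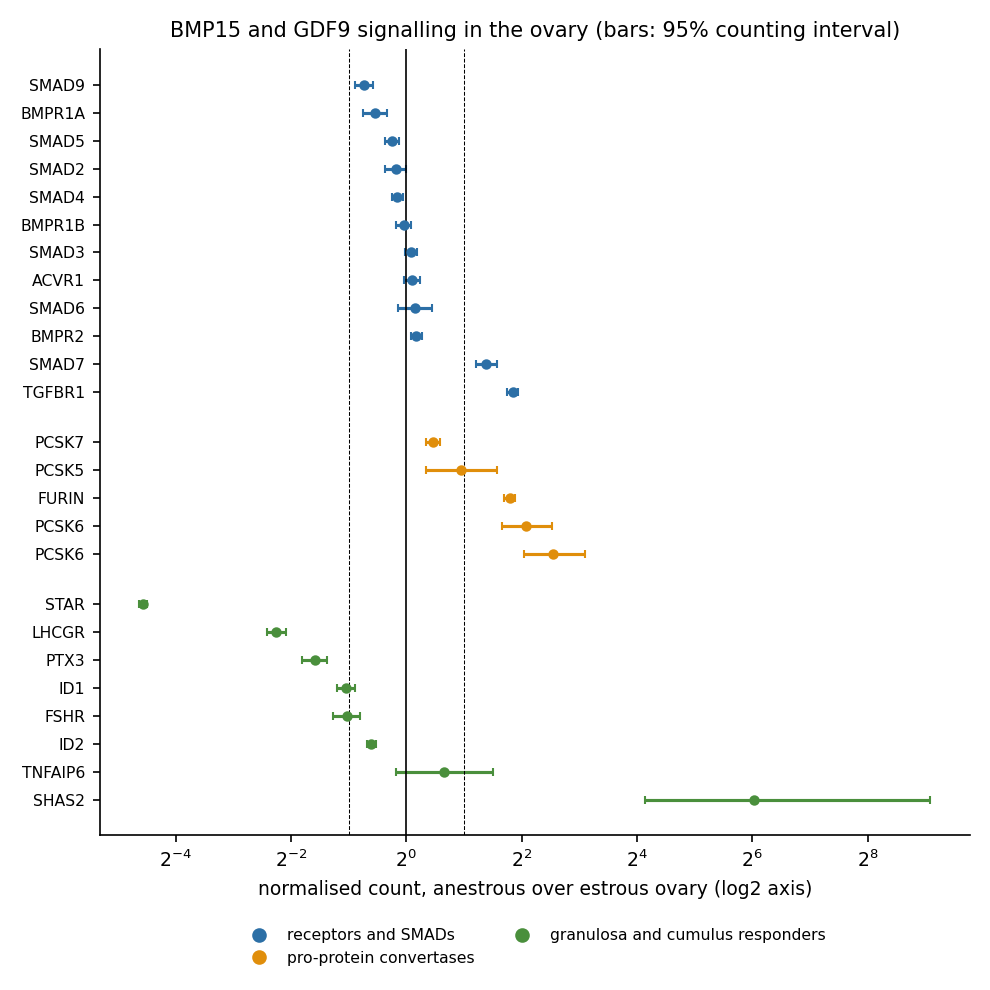
Ratio of normalised counts, anestrous over estrous ovary (log2 axis), for receptors and SMADs, pro-protein convertases, and genes of granulosa and cumulus cells known to respond to oocyte factors, with 95% counting intervals. The solid line marks equal counts and dashed lines mark 2-fold. Most receptors and SMADs lie within 2-fold, except TGFBR1 (3.59) and SMAD7 (2.61), and BMPR2, ACVR1, SMAD3 and SMAD6 change side when library totals are made equal.

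Genes of granulosa and cumulus cells that are known to respond to oocyte factors did not all shift the same way. They were listed without the direction of that response, so these counts do not measure it. Of 8 over the list floor, 5 were 2-fold lower and 1 was 2-fold higher (median -1.03), against 10.7% lower and 13.6% higher among all ovary genes over that floor. STAR, which carries cholesterol into mitochondria for steroid synthesis, was the lowest of them (1966 and 50383 reads in the anestrous and estrous ovary, log2 fold -4.56). LHCGR gave 385 and 1987 reads in the anestrous and estrous ovary (ratio 0.210, 0.188 to 0.234). PTX3, which encodes a protein of the cumulus matrix, gave 233 and 757 reads in the anestrous and estrous ovary (ratio 0.334, 0.287 to 0.387). SHAS2, the tables' name for HAS2, which makes the hyaluronan of that matrix, gave 120 and 2 reads (ratio 65.0, 17.6 to 543). ID1, a target of the BMP branch, gave 473 and 1054 reads (ratio 0.486, 0.435 to 0.543). Of the other ligands and binding proteins of this family, 1 of 11 was 2-fold lower, INHA (log2 fold -2.46), and 1 was 2-fold higher, TGFB1 (1.40). BMP6, which oocytes also make in mice, had 382 and 683 reads (ratio 0.606, 0.533 to 0.688), and TGFB3 a log2 fold of -0.60.

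Markers of other ovarian cells also differed between the ovary libraries. Among all ovary genes over the list floor, 10.7% were 2-fold lower and 13.6% were 2-fold higher, with a median log2 fold of 0.01. These shares are the background for the 2-fold marker counts here and in the next paragraph. For counts of markers below or above 0, the share of all ovary genes was not counted, and only that median is given. All 11 granulosa markers had a log2 fold below 0, 8 of them at least 2-fold lower, and their summed level was 2491 RPM in the anestrous and 13077 in the estrous ovary. Of 5 theca and luteal markers, 4 were 2-fold lower and 1, HSD3B1, was higher (summed levels 3497 and 8624). This sum mixes opposite shifts: HSD3B1 gave 49378 and 10245 reads in the anestrous and estrous ovary, and CYP17A1 4202 and 64699. Of 10 macrophage rows, 8 had a log2 fold above 0, and 4 of the 9 over the list floor were 2-fold higher (summed levels 1698 and 1241). No marker was at 0, and CD163, below that floor, had 1 and 11 reads in the anestrous and estrous ovary. The part of these other cells in the lower level of the oocyte genes was not tested.

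Other markers in the ovary moved less evenly. Endothelial markers were all 6 within 2-fold, as were 75.6% of all ovary genes over the list floor. Their summed level was 778 RPM in the anestrous and 803 in the estrous ovary. Of 5 smooth muscle markers, 2 were 2-fold lower, ACTG2 and DES (4638 and 6921). Of the 4 oviduct and surface epithelium markers over the list floor, 3 were 2-fold lower, KRT8 and KRT19 beside OVGP1, and EPCAM was higher. The summed level of the rows found was 33.4 and 72.3. FOXJ1, below that floor, had 0 and 8 reads in the anestrous and estrous ovary. The gap junction genes GJA1 (log2 fold -0.34) and GJC1 (-0.39) were within 2-fold. Their part was not tested either.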

How the data were processed

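RNA from 3 tissues and 2 states was sequenced from Illumina TruSeq libraries, per the labels' protocols. The submitters' processing notes name TopHat2 2.1.0. No read counter, genome build or strand setting is named in the sources used here. The deposited signal, named baseMean per the file headers, with DESeq named per the labels, is the authors' read count divided by a size factor. The p-values and adjusted p-values are the authors' own, per the file headers. In each column 100% of the values above 0 came out whole, to within 0.01 read, when divided by the smallest one, which recovered the reads. Tables were normalised separately. Ratios have exact conditional binomial (Clopper-Pearson) 95% intervals, ratios between genes conditional odds-ratio intervals, and levels exact Poisson intervals. They cover counting error only, since reads lack molecular identifiers and can be copies of one molecule. A fold against 0 reads uses a floor of 3 reads per library. Symbols came from the tables, then from a table of Ensembl names.

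The members and gene lists were chosen with earlier results of these data known. Named genes were the members, the oocyte and germ line lists, the receptors BMPR2, BMPR1A, BMPR1B and TGFBR1, up to 4 genes of each other list with a mean of at least 50 and the largest absolute log2 fold, the 5 genes most like each member, and tissue markers. SMAD9, ID1, GJA1, GJC1, CD163, FOXJ1, GATM and the neighbours of GDF9 were named after their values were seen. As alternatives, library totals were made equal, a trimmed mean of log ratios or a pseudocount of 5 was used, and the floor was dropped or set to 200. Added after the data were seen were the count of ovary-restricted genes, the median of the joined oocyte lists under each setting and a count test with edgeR 4.0.16 and DESeq2 1.42.0 (R 4.3.3). Python 3.11.15, SciPy 1.17.1 and pandas 2.3.3 were used.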

Additional observations from a re-analysis of the deposited data

Results flagged for a closer look

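GDF9 was singled out because its ratio of anestrous to estrous counts ran opposite ways in 2 tissues, each with an interval off 1. The ratio was 0.654 in the ovary (399 and 661 reads in the anestrous and estrous library) and 1.63 in the pituitary (702 and 456 reads). Over the floor of 50, the interval lay below 1 for 35.9% of ovary genes and above 1 for 26.8% of pituitary genes. How many other genes ran opposite ways in this manner was not counted. The ovary ratio divided by the pituitary ratio was 0.401, with a counting interval of 0.337 to 0.478. With 1 library per tissue and state, the difference between tissues was not tested over samples.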

How the results depend on the processing

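The log2 folds of ZP2, ZP3 and BMP15 in the ovary kept their direction, and stayed within their counting intervals, under a trimmed mean of log ratios, equal library totals and a pseudocount of 5. With that pseudocount ZP3 and BMP15 were at -1.98 and -2.0. That of GDF9 was -0.81 with equal totals, which moved the median of all ovary genes by -0.20, and stayed negative under each of these settings. Its small positive log2 fold in the hypothalamus (0.06) was -0.04 with equal totals. In the ovary, 867 genes were 2-fold lower and 1343 higher, against 1242 and 1033 with equal totals, 2223 and 2534 with no floor, and 501 and 880 with a floor of 200. Without the 10 genes with most reads, ZP3 was at 72.9 RPM in the estrous ovary, and GDF9 at 48.2 and 48.5 in the anestrous and estrous hypothalamus, 63.0 and 40.2 in the anestrous and estrous pituitary, and 27.4 and 46.7 in the anestrous and estrous ovary. The other 17 levels stayed within their Poisson intervals. Among the medians of gene lists, that of the pituitary markers in the ovary changed sign, to -0.078 with equal totals, and that of the receptors and SMADs was 0.02, against -0.18 with equal totals and -0.04 with a floor of 200. The median of the oocyte maternal genes was -1.53, and -0.60 with a floor of 200. The count test on the recovered reads, blocked on tissue, takes the tissues for replicates, although they are none. At an adjusted p of 0.05, edgeR called 0 of 14444 genes (542 at an unadjusted p under 0.05) and DESeq2 called 49 (555). The members had adjusted p-values of at least 0.986 by edgeR and, by DESeq2, 0.314 for ZP3 and at least 0.9999 for the others. The share of ovary-restricted genes that were lower was 29.1% at a cutoff of 90%, against 31.1% at 95% and 64.0% at 99%. No paired analysis was possible because each state had 1 library within a tissue, and the count test above pairs the states across tissues only. Depth limits the statements on genes under 50 reads, such as ASTL, FIGLA and BTG4.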

Other observations

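The deposited tables also carry annotation terms for each gene. ZP2 and ZP3 shared 11 Gene Ontology terms, among them binding of sperm to zona pellucida, and BMP15 and GDF9 shared 9, among them growth factor activity and SMAD protein signal transduction. The term for sperm binding was carried by 17 genes, of which 9 were over the floor of 50 in the ovary. Of these 9, 2 were at least 2-fold lower, ZP2 and ZP3, and none was higher, while 7.95% of all ovary genes over that floor were lower. Since the term was taken because ZP2 and ZP3 share it, this count tests nothing. ZP4 did not carry the term. Growth factor activity was carried by 85 genes, 35 of them over the floor. Of these 35, 6 were 2-fold lower in the anestrous ovary, BMP15 among them, and 7 were higher. Among all ovary genes over that floor, 7.95% were lower and 12.3% higher.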
